A study of Homo sapiens with 18 samples.

Results

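Exchange factors load the ARF GTPases with GTP and GTPase activating proteins switch them off again, and the transcript levels of 10 such genes were followed in control and senescent human fibroblasts given inhibitors of N-myristoylation. The 10 members were the rows of the count table with the symbols GBF1, ARFGEF1, ARFGEF2, CYTH1, CYTH2, CYTH3, IQSEC1, ARFGAP1, ARFGAP2 and ARFGAP3, out of 28266 gene rows in all. They comprised 7 exchange factors and 3 activating proteins. All 10 were among the 14341 genes that passed the filter on low counts.

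ARF proteins cycle between a soluble form bound to GDP and a membrane form bound to GTP, in which a myristoyl group on their N terminus anchors them to the bilayer. At the cis-Golgi, ARF1 loaded by GBF1 recruits the COPI coat, and at the trans-Golgi the large factors encoded by ARFGEF1 and ARFGEF2 serve clathrin adaptors. Cytohesins and IQSEC1 act mainly at the plasma membrane and endosomes, and the ARFGAP1, ARFGAP2 and ARFGAP3 proteins stimulate ARF1 to hydrolyse its GTP on COPI membranes.

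RNA came from IMR90 ER:RAS cells, an established line of human lung fibroblasts that carries a fusion of oncogenic RAS with the oestrogen receptor's ligand-binding part. Every group carried this fusion, although the labels give the genotype as WT, and the fusion is switched on by 4-hydroxytamoxifen (4OHT), an activating ligand. Cells received 100 nM 4OHT (senescent) or DMSO (control), were grown for 7 days and were then exposed for 3 days to DDD86481 at 1.5 µM, to IMP1088 at 300 nM or to DMSO, with collection on day 10. Both compounds inhibit N-myristoyltransferases, and as their doses differed their values are set side by side without a comparison between them. The 6 groups held 3 libraries each. The study describes its replicates of this experiment as independent experiments, so p-values measure the spread between such experiments on a single line. In bulk RNA, a change in the mix of cells and a change of RNA per cell cannot be told apart.

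Library totals ran from 16143716 to 23189950 counts, and levels are given as CPM, counts scaled by library size and TMM factor. Fibroblast genes were present in every library, with COL1A1 at 750.4 to 10652 CPM and VIM at 3378 to 11938 CPM. Most were lower in senescent than in control cells with DMSO. DCN was at only 7.73 ± 0.288 against 3042 ± 226 CPM (SD, n = 3) and LUM at 8.39 ± 1.01 against 314 ± 21.4 CPM. COL3A1 was at 296 ± 47.9 against 3701 ± 620 CPM and COL1A2 at 708 ± 78.2 against 7319 ± 1509 CPM. COL1A1, THY1 and PDGFRB were lower to a lesser extent, and VIM was higher. Of 8 markers of other cell types, KRT5 was at 0 in every library, PTPRC reached at most 0.392 CPM, CDH1 0.187 CPM and EPCAM 1.44 CPM, and for the other 4 the control and senescent DMSO libraries did not overlap. The muscle marker DES was at 12 ± 0.939 CPM in control and 0.16 ± 0.0753 CPM in senescent cells with DMSO, and the endothelial markers went from 0.21 ± 0.134 to 2.77 ± 0.417 CPM (PECAM1) and from 0.0134 ± 0.0232 to 1.77 ± 0.261 CPM (CDH5). CD68, a lysosomal marker of macrophages, was at 17.5 ± 2.43 CPM in control and 132 ± 15.8 CPM in senescent cells with DMSO, and the part of these 4 in the senescence results was not tested. With DMSO, the senescence marker CDKN1A was at 2126 ± 159 CPM in senescent and 377 ± 34.6 CPM in control cells. With IMP1088 and DDD86481, senescent cells held 1319 and 1389 CPM of CDKN1A, and CDKN2B went from 226 to 106 and 109 CPM. LMNB1 went there from 2.08 to 4.28 and 4.13 CPM. In control cells MKI67 went from 21.6 to 3.63 and 3.94 CPM and LMNB1 from 27.2 to 10.3 and 11.1 CPM. These are means of 3 libraries, and their part in the inhibitor results was not tested. One library stood apart by transcript length. In control DMSO replicate 3 the difference from the other 2 libraries of its group correlated with transcript length across 13820 genes at a Spearman rho of -0.578, against 0.533 and 0.319 in replicates 1 and 2, which are compared with it, and -0.242 to 0.306 in the 15 libraries of the other groups. With genes split by length into 5 equal bins, the median difference of that library ran from 0.40 in the shortest to -0.41 in the longest on the log2 scale. Genes are not independent replicates, and these values are a description.

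The members differed in length, their longest annotated transcripts ranging from 2728 bases for ARFGAP3 to 9031 for ARFGEF2. In control DMSO replicate 3, GBF1 was lower than the mean of replicates 1 and 2 by a log2 difference of -0.92, IQSEC1 by -0.88, ARFGEF2 by -0.74 and ARFGEF1 by -0.73, and these 4 have the longest transcripts of the members. The other 6 differed by -0.36 (CYTH3) to 0.30 (CYTH2). Counts of members called that rest on control cells with DMSO are therefore given with and without that library, as are many of the members' fold changes. What part transcript length had in any of them was not tested.

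**Figure D1:**
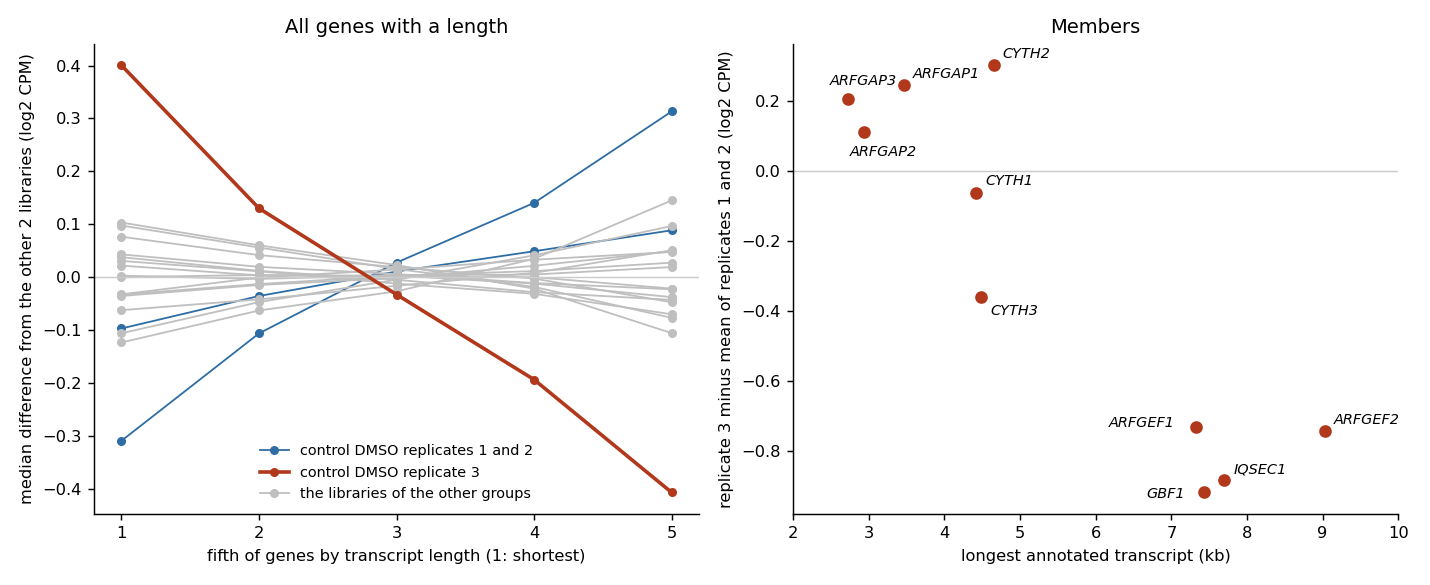
Left, the median difference of each library from the other 2 of its group (log2 CPM) in 5 equal bins of genes ordered by transcript length, for 18 libraries. Right, the same difference for the 10 members in control DMSO replicate 3 against the length of their longest annotated transcript in kb. The line of control DMSO replicate 3 falls from 0.40 to -0.41, and GBF1, IQSEC1, ARFGEF2 and ARFGEF1 lie below -0.7.

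Senescence moved most of the members, in both directions. With DMSO, 5 of the 10 were higher in senescent than in control cells (GBF1, ARFGEF2, CYTH1, ARFGEF1 and ARFGAP3) and 3 were lower (CYTH3, CYTH2 and ARFGAP2), at an adjusted p under 0.05 in edgeR's quasi-likelihood test. Over all 14341 genes tested, 32.5% were higher and 36.0% lower, so the share of members called was near the background. The median log2 fold change of the members was 0.26, beside -0.05 over all genes tested. Scaling to the upper quartile moved the median log2 fold change over all tested genes by -0.15 here and left 1 member higher (GBF1) and 4 lower (CYTH3, CYTH2, ARFGAP2 and IQSEC1). Without control DMSO replicate 3 the counts were 4 higher and 2 lower, and without senescent DMSO replicate 1 only 5 members were called. The share of all genes called was not counted in these or later alternative fits, so such counts have no background beside them.

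In senescent cells the members called, 4 with IMP1088 and 5 with DDD86481, were near the share over all genes. With IMP1088, 3 were higher (ARFGAP1, ARFGAP3 and CYTH2) and 1 lower (CYTH3), against 20.6% and 23.9% of all genes. With DDD86481, 3 were higher (ARFGAP1, CYTH2 and ARFGAP3) and 2 lower (CYTH3 and IQSEC1), against 20.1% and 23.1% of all genes. Control DMSO replicate 3 only shares the estimate of the spread here. Leaving it out of the fit gave 4 higher and 2 lower with IMP1088 and 5 higher and 2 lower with DDD86481. That alternative was chosen after seeing the data, and the share of all genes called in it was not counted. These comparisons share the senescent DMSO libraries.

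In control cells 3 members were called with IMP1088 and 4 with DDD86481, none of them lower. IMP1088 raised 3 members (ARFGEF2, GBF1 and ARFGAP1), where 16.3% of all genes were higher and 17.4% lower. DDD86481 raised 4 (ARFGEF2, GBF1, ARFGEF1 and ARFGAP1), where 17.8% of all genes were higher and 18.7% lower. No member was lower in these comparisons at an unadjusted p under 0.05 either (0 of 10), and DESeq2 called 0 lower. The share of all genes lower in these ways was not counted, so neither 0 has a background beside it. Without control DMSO replicate 3, 4 members were higher with IMP1088 and 3 with DDD86481. Without control DDD86481 replicate 1, only 2 members were called with DDD86481. Both comparisons use the control DMSO libraries.

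An interaction term tested whether an inhibitor acted differently in senescent and control cells. For IMP1088 it was positive for 2 members (ARFGAP1 and ARFGAP3) and negative for 1 (CYTH3), beside 12.1% and 14.2% of all genes. For DDD86481 it was positive for 3 (CYTH2, ARFGAP1 and ARFGAP3) and negative for 2 (IQSEC1 and CYTH3), beside 14.4% and 15.9% of all genes. Without control DMSO replicate 3 the counts were 0 positive and 1 negative for IMP1088 and 2 positive and 2 negative for DDD86481. Without control DMSO replicate 1, in contrast, 7 members were called for IMP1088 and 8 for DDD86481. Leaving out senescent DMSO replicate 2 or senescent IMP1088 replicate 1 or 3 left 1 call for IMP1088, and leaving out senescent DDD86481 replicate 1 left 3 for DDD86481.

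**Figure D2:**
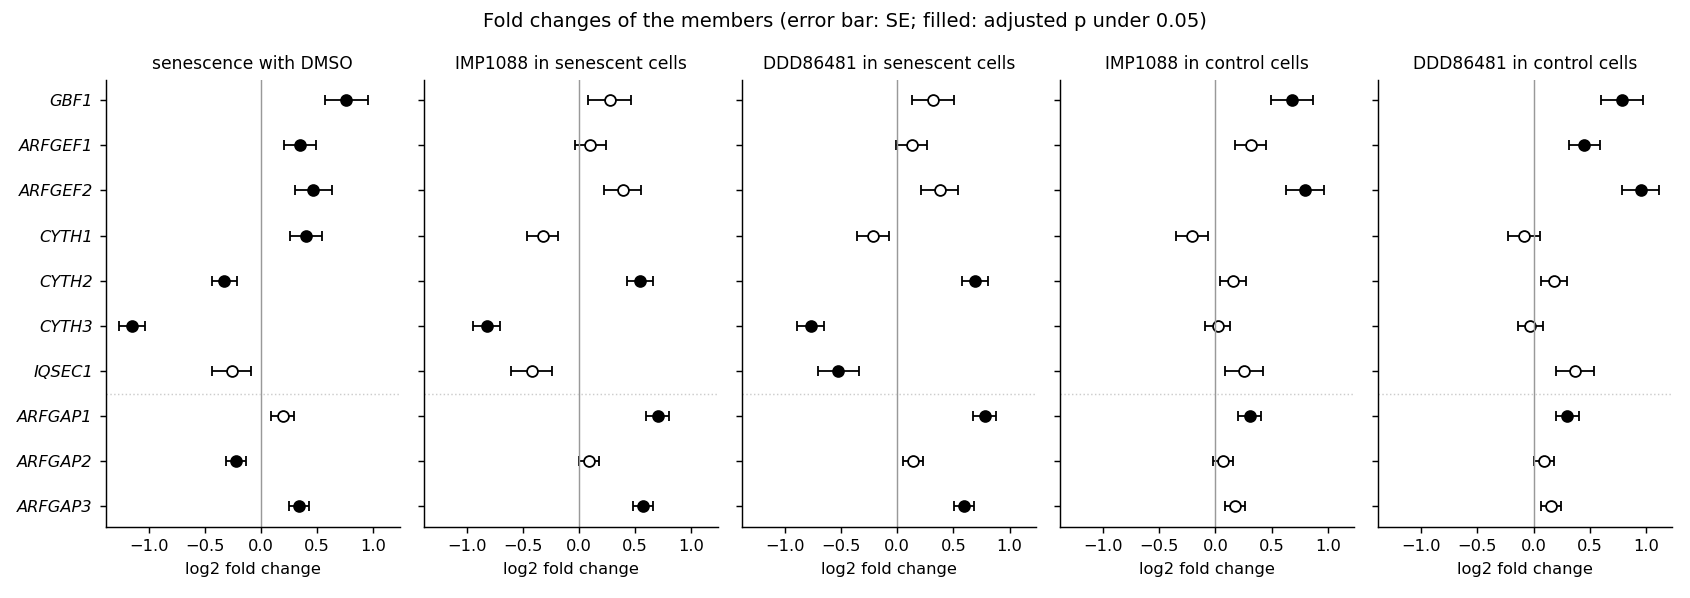
Log2 fold change of each member in 5 comparisons, with SE as error bars, from 1 fit of 18 libraries in 6 groups of 3. Filled circles mark an adjusted p under 0.05, and the dotted line parts exchange factors (above) from activating proteins. CYTH3 lies at -1.15 in senescence, and ARFGAP1 lies at 0.70 and 0.78 with the inhibitors in senescent cells.

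Levels of different genes can be set against each other only per length. Per kb of the union of annotated exons, control cells with DMSO held 28.6 ± 2.57 CPM of ARFGAP3, 22.1 ± 2.61 of ARFGAP1 and 11.9 ± 0.554 of ARFGAP2 (SD, n = 3). The exchange factors were lower on this scale, from 9.35 ± 1.35 for CYTH3 and 9.17 ± 1.15 for CYTH2, which did not differ beyond their spread, through 5.67 ± 1.52 for ARFGEF1, 4.24 ± 1.24 for ARFGEF2 and 4.23 ± 1.64 for GBF1 to 3.3 ± 1.04 for IQSEC1 and 2.65 ± 0.326 for CYTH1, the last 5 each within the spread of a neighbour. The order depends on the length used, since the exons of GBF1 add up to 22901 bases while its longest transcript has 7436. Per kb of the longest transcript CYTH2 was highest of the exchange factors at 18.4 ± 2.3, with all its libraries above those of CYTH3 at 12.1 ± 1.75. GBF1 at 13 ± 5.05 stood above CYTH3 but within the spread of CYTH3, and its libraries overlapped those of CYTH2. ARFGAP1 at 42.2 ± 4.97 had a higher mean than ARFGAP3 at 34.3 ± 3.08, but their libraries overlapped. The lowest of ARFGAP1 was at 37.1 and the highest of ARFGAP3 at 37.6.

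**Figure D3:**
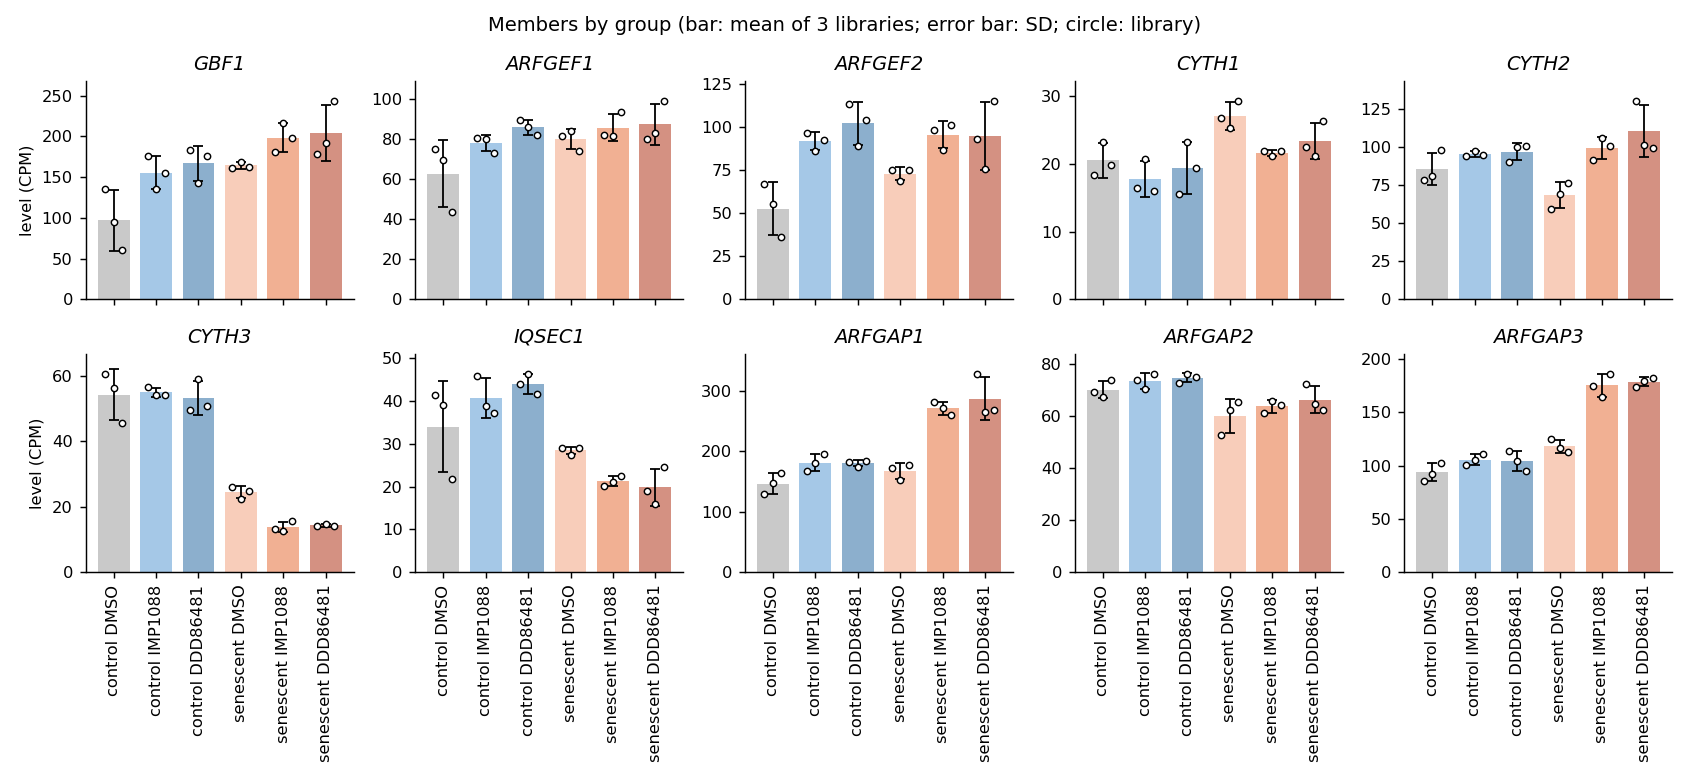
Level of each member (CPM, linear axis from 0) in the 6 groups, where bars are means of 3 libraries, error bars are SD and circles are libraries in replicate order. CYTH3 falls from 54.3 ± 7.83 CPM in control cells with DMSO to 13.8 ± 1.66 and 14.3 ± 0.371 CPM in senescent cells with IMP1088 and DDD86481, and ARFGAP1 and ARFGAP3 are highest in those 2 groups.

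Promoter windows of 300 bases, from before to just after a transcription start, were taken from RefSeq (GRCh38.p14). No window of ARFGEF1 or ARFGAP1 was included in the search, which does not mean that RefSeq holds none, and their promoters are left open. The windows included were 13, from the other 8 members. They were searched on both strands for 4 short elements: the unfolded protein response element TGACGTGG, the palindromic E-box TCACGTGA, the C/EBP-ATF element TGATGNAA and the ER stress response element (ERSE), which are known from the unfolded protein response, lysosomal gene control and amino acid stress. The first is present in 0.729% of 35116 windows of this length, the second in 0.98%, the third in 3.62% and ERSE in 0.0769%. ERSE is CCAAT, 9 unspecified bases and CCACG. The first and second elements have the core ACGTG in common, and CCACG is also part of the first read on its opposite strand. Shown are the windows of the members that held a match, and that of ARFGAP3, which rose with both inhibitors in senescent cells and held none, as did CYTH2, which is not shown. Capitals mark the match, and each sequence is written 5′ to 3′ on the gene's strand.
GBF1, chr10:102245282-102245581, plus strand: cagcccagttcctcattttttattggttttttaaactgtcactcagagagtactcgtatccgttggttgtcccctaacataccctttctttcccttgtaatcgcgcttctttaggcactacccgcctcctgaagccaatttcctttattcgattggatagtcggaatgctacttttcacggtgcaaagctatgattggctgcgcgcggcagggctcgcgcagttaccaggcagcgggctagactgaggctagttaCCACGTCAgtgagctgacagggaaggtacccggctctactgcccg
ARFGEF2, chr20:48921461-48921760, plus strand: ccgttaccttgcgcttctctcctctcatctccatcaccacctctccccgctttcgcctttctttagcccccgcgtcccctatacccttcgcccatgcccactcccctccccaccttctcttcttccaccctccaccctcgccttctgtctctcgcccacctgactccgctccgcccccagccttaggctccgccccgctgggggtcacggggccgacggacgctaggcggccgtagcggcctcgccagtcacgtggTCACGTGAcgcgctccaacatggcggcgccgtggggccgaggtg
CYTH3, chr7:6272575-6272874, minus strand: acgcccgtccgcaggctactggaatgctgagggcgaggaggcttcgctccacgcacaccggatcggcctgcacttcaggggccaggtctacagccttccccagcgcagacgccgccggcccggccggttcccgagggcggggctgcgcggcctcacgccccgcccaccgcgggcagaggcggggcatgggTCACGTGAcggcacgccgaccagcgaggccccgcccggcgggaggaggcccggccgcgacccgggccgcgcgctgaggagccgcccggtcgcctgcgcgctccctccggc
ARFGAP3, chr22:42857224-42857523, minus strand: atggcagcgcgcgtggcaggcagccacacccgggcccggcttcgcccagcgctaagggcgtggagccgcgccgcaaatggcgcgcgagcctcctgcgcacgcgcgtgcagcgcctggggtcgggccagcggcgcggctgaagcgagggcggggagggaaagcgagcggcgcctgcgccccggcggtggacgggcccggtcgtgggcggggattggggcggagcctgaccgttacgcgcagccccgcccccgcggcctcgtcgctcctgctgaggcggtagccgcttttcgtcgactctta
In the GBF1 window the unfolded protein response element began at base 256, on the opposite strand. The E-box began at base 257 of the ARFGEF2 window and at base 191 of the CYTH3 window. The other 10 windows, which belong to GBF1, CYTH1, CYTH2, CYTH3, IQSEC1, ARFGAP2 and ARFGAP3, held none of the 4. A match is a run of letters and not a measured binding site.

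GBF1 (GRCh37, as for all positions that follow, chr10:104005128-104142656, plus strand) encodes the exchange factor of the cis-Golgi and a target of brefeldin A. Its level was 135, 95.6 and 60.1 CPM in replicates 1, 2 and 3 of control cells with DMSO and 162, 169 and 163 CPM in senescent cells with DMSO. The senescent libraries were tightly grouped and lay above all control libraries, whose own spread was wide. The log2 fold change was 0.76 ± 0.19 (SE), with an adjusted p of 0.00145, and without control DMSO replicate 3 it was 0.51 with an adjusted p of 0.00346.

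Inhibitors raised GBF1 in control cells. IMP1088 gave 176, 136 and 155 CPM and DDD86481 184, 143 and 176 CPM. Every treated library was above every control DMSO library, though by only about 1 CPM at the nearest point for IMP1088. The log2 fold changes were 0.68 ± 0.19 (adjusted p of 0.00917) and 0.79 ± 0.19 (adjusted p of 0.00321), and without control DMSO replicate 3 they were 0.43 (adjusted p of 0.0282) and 0.54 (adjusted p of 0.0074). Fitting only the 2 groups compared ended both calls, at an adjusted p of 0.0942 and 0.0546. In senescent cells the levels were 181, 217 and 198 CPM with IMP1088 and 178, 192 and 244 CPM with DDD86481, again above all libraries with DMSO, but the fold changes of 0.27 ± 0.19 (adjusted p of 0.259) and 0.32 ± 0.19 (adjusted p of 0.188) did not pass the threshold. With only the 2 groups in the fit both passed, at 0.000759 and 0.0171, and with control DMSO replicate 3 left out of the shared fit the DDD86481 change passed (adjusted p of 0.0452). The interaction was -0.41 ± 0.27 for IMP1088 (adjusted p of 0.267) and -0.47 ± 0.27 for DDD86481 (adjusted p of 0.189), and without control DMSO replicate 1 it was -0.73 (adjusted p of 0.012) and -0.79 (adjusted p of 0.00654). Leaving out replicate 3 instead gave only -0.16 (adjusted p of 0.597) and -0.22 (adjusted p of 0.433).

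ARFGEF1 (chr8:68085746-68256016, minus strand) encodes BIG1, a brefeldin A-inhibited exchange factor of the trans-Golgi. Its fold changes were the smallest of the large factors. The control DMSO libraries held 75.1, 69.6 and 43.5 CPM and the senescent DMSO libraries 81.6, 83.9 and 74.3 CPM, and the ranges overlapped. The log2 fold change of 0.35 ± 0.14 had an adjusted p of 0.0342, but without control DMSO replicate 3 it was 0.14 with an adjusted p of 0.202. The call was also lost without senescent DMSO replicate 1 or 2, at 0.079 and 0.0955. In control cells it was at 73.2 to 80.8 CPM with IMP1088 and 82.2 to 89.7 CPM with DDD86481, with log2 fold changes of 0.31 ± 0.14 (adjusted p of 0.0901) and 0.45 ± 0.14 (adjusted p of 0.0161). The DDD86481 call was lost without control DMSO replicate 3 (0.25, adjusted p of 0.063) and without control DDD86481 replicate 1 (adjusted p of 0.0597), and without control DMSO replicate 1 the IMP1088 difference was called (adjusted p of 0.012), whereas without control DMSO replicate 3 it was 0.11 (adjusted p of 0.445). Fitting only the groups compared ended the senescence call and the DDD86481 call in control cells (adjusted p of 0.108 and 0.11). In senescent cells the interval of 2 SE around the change ran from -0.18 to 0.38 with IMP1088 and from -0.15 to 0.41 with DDD86481. The interaction was -0.21 ± 0.20 (adjusted p of 0.45) and -0.32 ± 0.20 (adjusted p of 0.223), the latter called without control DMSO replicate 1 (adjusted p of 0.0491). Both shrank without replicate 3, to -0.0095 (adjusted p of 0.975) and -0.12 (adjusted p of 0.552).

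ARFGEF2 (chr20:47538248-47653230, plus strand) encodes BIG2, the close relative of BIG1, which also acts on recycling endosomes. It showed the largest inhibitor effect of the members in control cells. The libraries held 66.8, 55.2 and 36.3 CPM with DMSO, 96.7, 86.3 and 92.7 CPM with IMP1088 and 113, 89.1 and 104 CPM with DDD86481. All treated libraries lay above all untreated ones. IMP1088 gave a log2 fold change of 0.80 ± 0.16 (adjusted p of 0.000949) and DDD86481 one of 0.95 ± 0.17 (adjusted p of 0.000173). Without control DMSO replicate 3 these were 0.59 (adjusted p of 0.00195) and 0.74 (adjusted p of 0.000222), so both calls held.

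In senescent cells ARFGEF2 was at 74.9, 68.7 and 75.3 CPM with DMSO, 98.6, 86.8 and 102 CPM with IMP1088 and 93.4, 76.1 and 115 CPM with DDD86481. Replicates of the DDD86481 group were widely spread, and its lowest library was within 1 CPM of the highest with DMSO. The difference between senescent and control cells with DMSO was 0.47 ± 0.17 (adjusted p of 0.0173), and 0.26 (adjusted p of 0.0923) without control DMSO replicate 3. The inhibitor changes were 0.39 ± 0.16 (adjusted p of 0.0603) and 0.38 ± 0.16 (adjusted p of 0.0697). Both lay just outside the threshold, and both passed it without control DMSO replicate 3, with an adjusted p of 0.00922 and 0.0118, and with no filter on low counts, with one of 0.0152 and 0.0206. The interaction was -0.41 ± 0.23 (adjusted p of 0.202) for IMP1088 and -0.57 ± 0.23 (adjusted p of 0.0664) for DDD86481, and it was called without control DMSO replicate 1 (adjusted p of 0.0277 and 0.00605). With replicate 3 left out instead it was -0.20 (adjusted p of 0.463) and -0.37 (adjusted p of 0.14).

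GBF1 and ARFGEF1 have transcripts of similar length, and their ratio of counts within a library does not depend on scaling. The ratio ran from 1.37 to 1.8 in control cells with DMSO and from 1.98 to 2.19 in senescent cells with DMSO, without overlap. Inhibitors gave 1.69 to 2.19 and 1.66 to 2.14 in control cells, overlapping the DMSO libraries, and 2.12 to 2.66 and 2.23 to 2.46 in senescent cells. Of the senescent treated groups, only that with DDD86481 lay wholly above the senescent DMSO libraries.

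CYTH3 (chr7:6201410-6312275, minus strand) encodes cytohesin-3, also called GRP1, which binds the lipid PIP3 and loads ARF6 at the plasma membrane. It showed the largest change of any member. Control cells with DMSO held 60.8, 56.4 and 45.6 CPM and senescent cells with DMSO 26.2, 22.5 and 24.7 CPM. The groups were far apart, with a log2 fold change of -1.15 ± 0.11 and an adjusted p of 1.92e-08, and the level fell by 55%. It was -1.26 (adjusted p of 3.47e-10) without control DMSO replicate 3. Senescent cells given IMP1088 held 13.2, 12.6 and 15.7 CPM and those given DDD86481 14, 14.7 and 14.2 CPM. All of these libraries lay below all senescent DMSO libraries. The changes were -0.82 ± 0.12 (adjusted p of 1.3e-05) and -0.77 ± 0.12 (adjusted p of 2.89e-05).

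No change of CYTH3 passed the threshold in control cells. Values were 56.7, 54.3 and 54.2 CPM with IMP1088 and 49.7, 59.3 and 50.8 CPM with DDD86481, within the range of the control DMSO libraries. The interval of 2 SE around the log2 fold change ran from -0.20 to 0.24 and from -0.25 to 0.19. The interaction was -0.84 ± 0.16 (adjusted p of 0.000862) for IMP1088 and -0.74 ± 0.16 (adjusted p of 0.00226) for DDD86481. Both calls held when any single library of the 4 groups was left out, with an adjusted p of at most 0.0047 and 0.013, and the senescence call held likewise. The terms were -0.73 and -0.63 without control DMSO replicate 3.

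CYTH2 (chr19:48972465-48985571, plus strand) encodes cytohesin-2, or ARNO, an exchange factor of the plasma membrane and endosomes, and in senescent cells it rose with the inhibitors while CYTH3 fell. Its level was 78.2, 80.7 and 97.9 CPM in control and 59.4, 68.8 and 76.4 CPM in senescent cells with DMSO. The groups did not overlap but were close, and the log2 fold change of -0.33 ± 0.12 (adjusted p of 0.017) was -0.22 (adjusted p of 0.0858) without control DMSO replicate 3 and -0.23 (adjusted p of 0.108) without senescent DMSO replicate 1. With only the groups compared, its call was lost too (adjusted p of 0.072). Senescent cells held 91.6, 106 and 101 CPM with IMP1088 and 130.2, 101 and 99.5 CPM with DDD86481, all above the senescent DMSO libraries. The changes of 0.54 ± 0.12 (adjusted p of 0.00073) and 0.69 ± 0.12 (adjusted p of 6.59e-05) stayed past the threshold without any 1 library. In control cells the changes were 0.16 ± 0.11 (adjusted p of 0.302) and 0.18 ± 0.11 (adjusted p of 0.226). The interaction was 0.38 ± 0.16 for IMP1088 (adjusted p of 0.0867) and 0.51 ± 0.16 for DDD86481 (adjusted p of 0.0227). The former was called without control DMSO replicate 1 (adjusted p of 0.0394) and was 0.28 (adjusted p of 0.2) without replicate 3. The latter lost its call without control DMSO replicate 3 (0.41, adjusted p of 0.0505), senescent DMSO replicate 1 (adjusted p of 0.0717) or senescent DDD86481 replicate 1 (adjusted p of 0.0735).

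The balance of these cytohesins within a library needs no scaling. The ratio of CYTH3 counts to CYTH2 counts ran from 0.466 to 0.777 in control cells with DMSO, from 0.557 to 0.605 with IMP1088 and from 0.504 to 0.593 with DDD86481. It ran from 0.323 to 0.44 in senescent cells with DMSO, from 0.119 to 0.156 with IMP1088 and from 0.108 to 0.145 with DDD86481. Every senescent library given an inhibitor had a lower ratio than every library of the other 4 groups.

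CYTH1 (chr17:76670130-76778379, minus strand) encodes cytohesin-1, which is known for binding integrin in leukocytes. Its level was 18.4, 23.3 and 19.9 CPM in control and 26.8, 25.3 and 29.3 CPM in senescent cells with DMSO, without overlap. The log2 fold change of 0.40 ± 0.14 (adjusted p of 0.0154) lost its call without control DMSO replicate 1 (adjusted p of 0.06) or senescent DMSO replicate 3 (adjusted p of 0.0645), and under upper quartile scaling it was 0.25 (adjusted p of 0.133). The call held at 0.38 (adjusted p of 0.0301) without control DMSO replicate 3. With inhibitors the senescent libraries held 21.1 to 22 and 21.2 to 26.4 CPM. The changes of -0.33 ± 0.14 (adjusted p of 0.0671) and -0.22 ± 0.14 (adjusted p of 0.228) did not pass the threshold, and neither did those in control cells, with intervals of -0.49 to 0.07 and -0.36 to 0.20. With only the groups compared in the fit, the IMP1088 change in senescent cells passed (-0.29, adjusted p of 0.00854).

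CYTH4 is the remaining cytohesin and is best known from blood cells. It was scarce in control cells with DMSO, at 7 to 22 counts per library, and held 135 to 151 counts in senescent cells with DMSO. The levels were 0.539 ± 0.313 and 8.45 ± 0.177 CPM, which is a log2 difference of 3.94 ± 0.27 (adjusted p of 8.04e-11). It fell with IMP1088 to 4.2 ± 0.252 CPM (-1.01 ± 0.22, adjusted p of 0.000755) and with DDD86481 to 4.28 ± 0.80 CPM (-0.98 ± 0.22, adjusted p of 0.00103). PTPRC, which marks white blood cells, did not exceed 0.392 CPM in any library, whereas CD68 was higher in senescent cells as given above, and its part in the rise of CYTH4 was not tested.

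IQSEC1 (chr3:12938542-13324781, minus strand) encodes BRAG2, an exchange factor for ARF6 that acts on integrin traffic. Its level was 41.3, 39.1 and 21.7 CPM in control and 29, 27.5 and 29 CPM in senescent cells with DMSO. Control DMSO replicate 3 was below every senescent DMSO library and replicates 1 and 2 were above them. The log2 fold change of -0.26 ± 0.18 (adjusted p of 0.193) became -0.50 (adjusted p of 0.0015) without that library. Inhibitors left 20.2, 21 and 22.5 CPM (IMP1088) and 18.9, 16 and 24.6 CPM (DDD86481) in senescent cells, all under the DMSO libraries. The DDD86481 change of -0.52 ± 0.18 was called (adjusted p of 0.0239) and the IMP1088 change of -0.42 ± 0.18 was not (adjusted p of 0.0621). The former lost its call without senescent DMSO replicate 1 or 3 (adjusted p of 0.0603 and 0.0604) or senescent DDD86481 replicate 1 or 2 (adjusted p of 0.0728 and 0.127), and the latter passed when control DMSO replicate 3 was left out of the shared fit (adjusted p of 0.0054).

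In control cells IQSEC1 was at 37.3 to 45.9 CPM with IMP1088 and 41.7 to 46.4 CPM with DDD86481, changes of 0.25 ± 0.17 (adjusted p of 0.272) and 0.37 ± 0.17 (adjusted p of 0.101). The interaction with DDD86481, -0.89 ± 0.25 (adjusted p of 0.0118), held when any 1 library was left out, and was -0.66 without control DMSO replicate 3. That with IMP1088, -0.68 ± 0.25, had an adjusted p of 0.0508, which was 0.0102 without control DMSO replicate 1, whereas without control DMSO replicate 3 the term was -0.44 (adjusted p of 0.074). The change in control cells with DDD86481 passed without replicate 1 (adjusted p of 0.0204), but without replicate 3 the changes in control cells were only 0.017 with IMP1088 (adjusted p of 0.94) and 0.13 with DDD86481 (adjusted p of 0.474). The paralog IQSEC2 rose in senescence from 18.2 ± 5.17 to 39.8 ± 1.88 CPM (1.12 ± 0.16, adjusted p of 2.79e-06) and did not pass the threshold with either inhibitor. IQSEC3 stayed at 3 to 20 counts per library and was called in no comparison.

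ARFGAP1 (chr20:61904137-61921142, plus strand) encodes the COPI-associated activating protein that senses membrane curvature. Senescent libraries held 171, 152 and 178 CPM with DMSO, 282, 272 and 260.3 CPM with IMP1088 and 328, 264 and 268 CPM with DDD86481. The treated libraries were well clear of the untreated ones. The log2 fold changes were 0.70 ± 0.10 (adjusted p of 1.44e-05) and 0.78 ± 0.10 (adjusted p of 4.32e-06), levels 1.62 and 1.72 times those with DMSO. Both held without any 1 library and under the 6 other settings.

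The rise of ARFGAP1 in control cells was smaller. Libraries held 129, 147 and 163 CPM with DMSO, 167, 180.3 and 195 CPM with IMP1088 and 183, 174 and 183 CPM with DDD86481, without overlap. The changes were 0.31 ± 0.10 (adjusted p of 0.0259) and 0.30 ± 0.10 (adjusted p of 0.0267). Both calls were lost without control DMSO replicate 1 (adjusted p of 0.0977 and 0.103) and under upper quartile scaling (adjusted p of 0.0633 and 0.0775) and with only the groups compared (adjusted p of 0.104 and 0.098), the IMP1088 call also without control IMP1088 replicate 3 (adjusted p of 0.0872) and the DDD86481 call also without control DDD86481 replicate 1 or 3 (adjusted p of 0.0587 and 0.0621). With control DMSO replicate 3 left out, IMP1088 gave 0.39 (adjusted p of 0.00554) and DDD86481 0.38 (adjusted p of 0.00635). The interaction was 0.39 ± 0.14 (adjusted p of 0.0495) for IMP1088, and it was called in 3 of the 12 fits that left out 1 library, with a highest adjusted p of 0.129. That call was also lost under RLE scaling (adjusted p of 0.0508) and with no filter on low counts (adjusted p of 0.0622). For DDD86481 it was 0.48 ± 0.14 (adjusted p of 0.0171), and lost its call without senescent DMSO replicate 2 (adjusted p of 0.0526) or senescent DDD86481 replicate 1 (adjusted p of 0.0525). Senescence alone gave 0.19 ± 0.10 (adjusted p of 0.101), and 0.28 (adjusted p of 0.0189) without control DMSO replicate 3.

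ARFGAP3 (chr22:43192508-43254112, minus strand) encodes another COPI-associated activating protein and rose stepwise. Libraries held 86, 92.2 and 103 CPM in control cells with DMSO and 125, 116 and 113 CPM in senescent cells with DMSO. Senescent cells held 175, 165 and 187 CPM with IMP1088 and 174, 179.5 and 183 CPM with DDD86481. None of these ranges overlapped the step before. The log2 fold change was 0.34 ± 0.09 in senescence (adjusted p of 0.00232), 0.57 ± 0.09 with IMP1088 (adjusted p of 2.86e-05) and 0.60 ± 0.09 with DDD86481 (adjusted p of 1.81e-05) in senescent cells. The senescence call held without any 1 library and was lost under upper quartile scaling (0.18, adjusted p of 0.0817), while both inhibitor calls held under every alternative run. The senescence change was 0.41 (adjusted p of 0.000329) without control DMSO replicate 3.

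In control cells ARFGAP3 was at 100.2 to 111 CPM with IMP1088 and 94.9 to 113 CPM with DDD86481, changes of 0.18 ± 0.09 (adjusted p of 0.134) and 0.16 ± 0.09 (adjusted p of 0.181). Without control DMSO replicate 3 the IMP1088 change was 0.25 (adjusted p of 0.0396). The interaction was 0.44 ± 0.13 for DDD86481 (adjusted p of 0.0125), which held without any 1 library. For IMP1088 it was 0.39 ± 0.13 (adjusted p of 0.0258), and the call was lost without control DMSO replicate 3 (adjusted p of 0.0506), senescent DMSO replicate 2 or 3 (adjusted p of 0.0551 and 0.0585) or senescent IMP1088 replicate 1 or 3 (adjusted p of 0.0501 and 0.0725), and with no filter on low counts (adjusted p of 0.0594).

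ARFGAP2 (chr11:47185850-47198676, minus strand), whose product also binds coatomer, was not called with either inhibitor in either state. It held 69.3, 67.5 and 73.8 CPM in control and 52.7, 62.4 and 65.4 CPM in senescent cells with DMSO. The senescent libraries were all lower, by a log2 fold change of -0.22 ± 0.09 (adjusted p of 0.0342), which was -0.18 (adjusted p of 0.0817) without control DMSO replicate 3 and -0.13 (adjusted p of 0.218) without senescent DMSO replicate 1. That call was also lost under RLE scaling, with no filter and with only the groups compared (adjusted p of 0.0637, 0.154 and 0.161). The intervals of 2 SE around the inhibitor changes were -0.10 to 0.26 and -0.04 to 0.32 in senescent cells and -0.11 to 0.25 and -0.09 to 0.27 in control cells. The ratio of ARFGAP1 to ARFGAP2 counts within a library ran from 1.85 to 2.21 in control cells with DMSO and from 2.43 to 3.26 in senescent cells with DMSO. It ran from 4.04 to 4.61 in senescent cells with IMP1088 and from 4.09 to 4.54 with DDD86481, above every library of the other 4 groups.

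**Figure D4:**
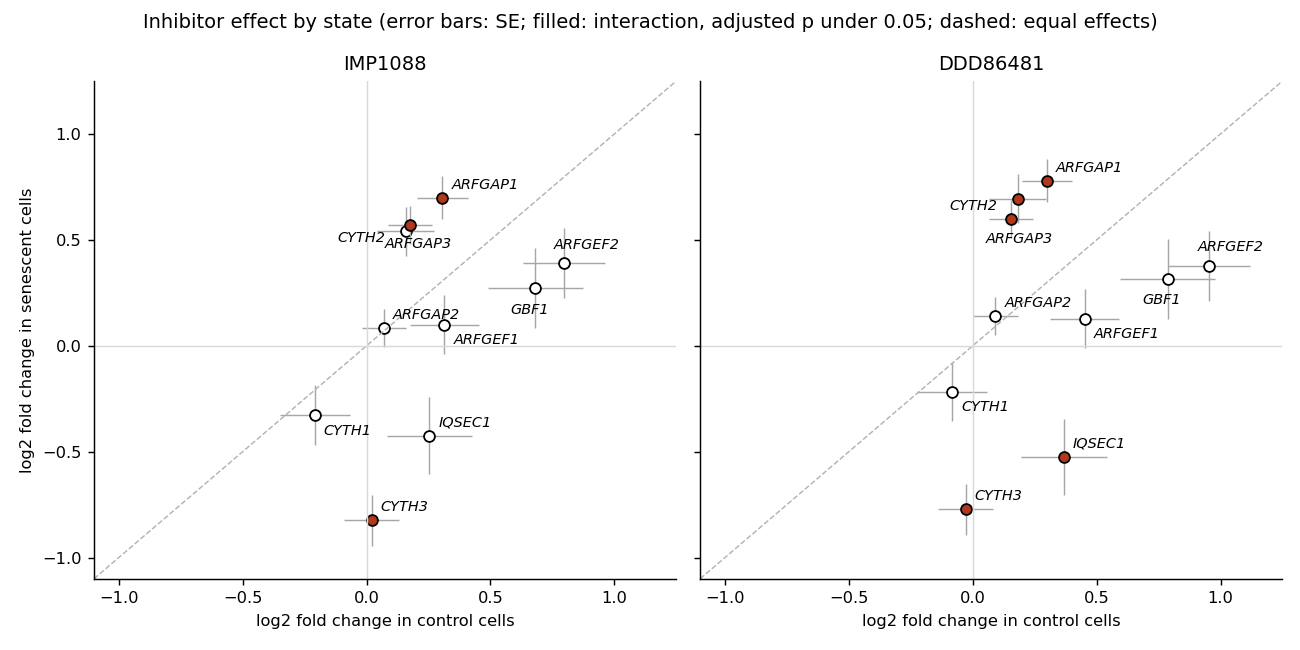
Log2 fold change of each member in senescent cells (vertical axis) against control cells (horizontal axis) for IMP1088 (left) and DDD86481 (right), with SE as error bars on both axes. The dashed line marks equal effects and filled circles an interaction with an adjusted p under 0.05. CYTH3 lies near 0 in control cells and at -0.82 and -0.77 in senescent cells, and ARFGEF2 lies farthest to the right, at 0.80 and 0.95.

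The wider family of ARF regulators was measured in the same fit. Of 28 other exchange factors and activating proteins, 27 were tested and PSD2 did not pass the filter. In senescence 13 were higher and 3 lower (background 32.5% and 36.0%), with a median log2 fold change of 0.33 beside -0.05 over all genes. The 3 largest changes were in CYTH4, ADAP2 (an activating protein, 2.61 ± 0.21, adjusted p of 5.64e-10) and SMAP2, an activating protein of the trans-Golgi, which rose from 38.1 ± 7.93 to 170.1 ± 8.97 CPM (2.16 ± 0.13, adjusted p of 5.73e-12). In senescent cells IMP1088 raised 5 and lowered 11 (background 20.6% and 23.9%), and DDD86481 raised 6 and lowered 11 (20.1% and 23.1%). In control cells IMP1088 raised 5 and lowered 3 (16.3% and 17.4%), while DDD86481 raised 4 and lowered 3 (17.8% and 18.7%).

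FBXO8, an F-box protein with a Sec7 domain, rose in senescent cells from 10.4 ± 0.727 to 23 ± 2.38 CPM with IMP1088 (1.14 ± 0.12, adjusted p of 3.41e-07) and to 20.7 ± 1.54 CPM with DDD86481 (0.995 ± 0.12, adjusted p of 2.14e-06). ASAP2, an activating protein of focal adhesions, fell from 77.2 ± 5.52 to 38.5 ± 2.58 CPM and to 37.2 ± 4.0 CPM (-1.002 ± 0.12, adjusted p of 2.22e-06, and -1.05 ± 0.13, adjusted p of 1.23e-06), although 30.4% of its exonic bases overlap a gene on the other strand. AGAP2 had the largest fold in both comparisons (1.92 ± 0.56, adjusted p of 0.00872, and 1.77 ± 0.57, adjusted p of 0.0172) on no more than 35 counts in any library, and its DDD86481 call was lost without senescent DMSO replicate 2 or senescent DDD86481 replicate 1.

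In control cells ACAP2, an activating protein for ARF6, rose from 87.7 ± 17 to 140.1 ± 10.7 CPM with IMP1088 (0.67 ± 0.11, adjusted p of 0.000108) and to 145 ± 1.79 CPM with DDD86481 (0.73 ± 0.11, adjusted p of 4.93e-05). The exchange factor PSD4 fell (-0.79 ± 0.27, adjusted p of 0.0278, and -0.998 ± 0.28, adjusted p of 0.00878), as did AGFG2 with IMP1088 (-0.61 ± 0.12, adjusted p of 0.000617) and ARAP2 with DDD86481 (-0.84 ± 0.30, adjusted p of 0.0309). Mean levels of PSD4 and ARAP2 lay under 2 CPM in these groups. The PSD4 calls were lost without control DMSO replicate 2, that with IMP1088 also without control IMP1088 replicate 1 or 3, and the ARAP2 call without control DMSO replicate 1 or control DDD86481 replicate 1 or 3. The interaction was called for 2 positive and 7 negative genes with IMP1088 (background 12.1% and 14.2%) and for 2 and 8 with DDD86481 (14.4% and 15.9%). Without control DMSO replicate 3 the counts were 2 and 4 with IMP1088 and 2 and 7 with DDD86481. With any 1 library left out, the genes called ranged from 6 to 12 with IMP1088 and from 8 to 11 with DDD86481.

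**Figure D5:**
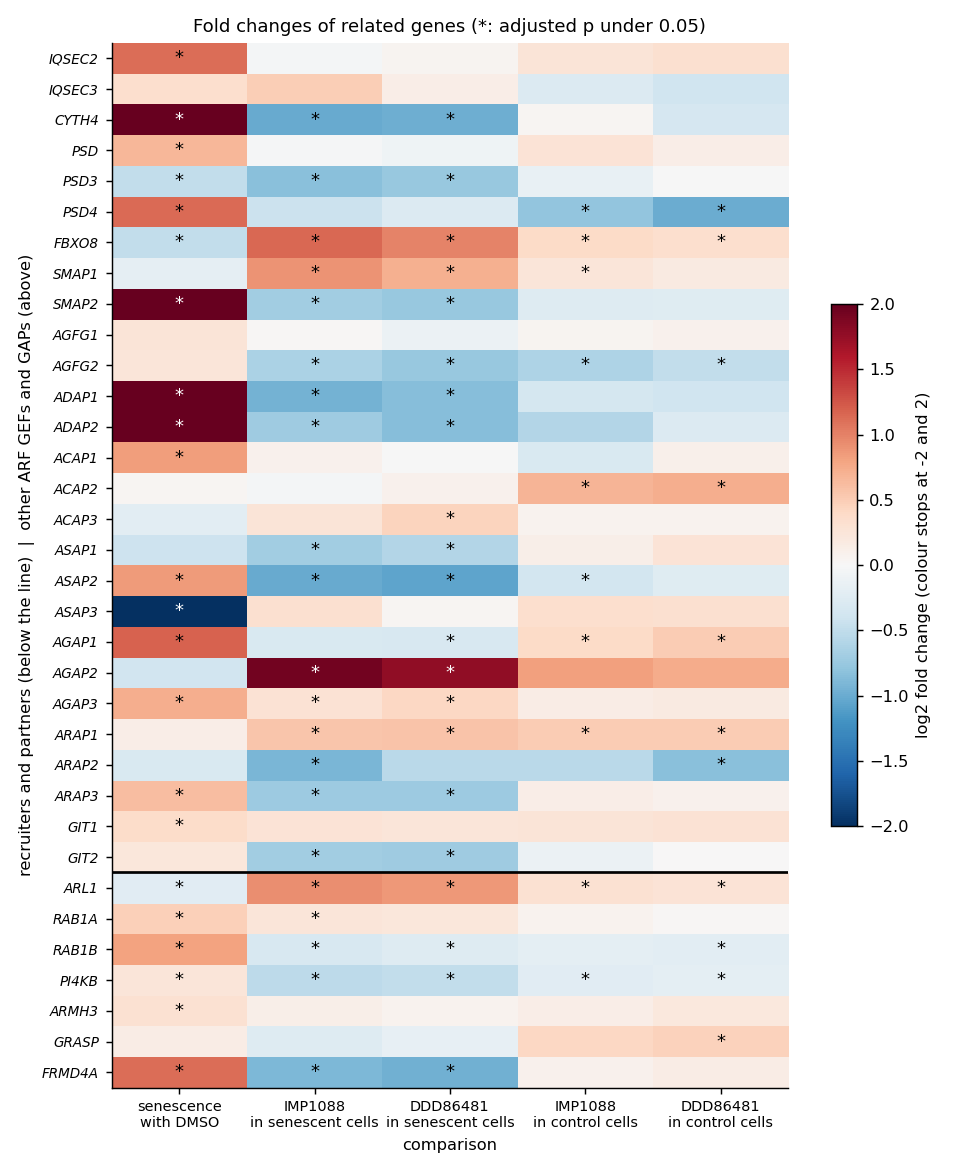
Log2 fold change of 27 other ARF exchange factors and activating proteins (above the line) and 7 recruiters and partners (below) in 5 comparisons, by colour from -2 to 2, with an asterisk for an adjusted p under 0.05. CYTH4, ADAP2 and SMAP2 are deep red in senescence and blue with either inhibitor in senescent cells, and ARL1 is red and FRMD4A blue with either inhibitor in senescent cells.

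Of 8 proteins that recruit the members to membranes or bind them, 7 were tested and CYTIP did not pass the filter. In senescence 5 were higher and 1 lower (background 32.5% and 36.0%). FRMD4A, a scaffold that binds cytohesins, rose (1.12 ± 0.13, adjusted p of 2.74e-07), as did RAB1B, a GTPase that recruits GBF1 (0.80 ± 0.08, adjusted p of 2.53e-08) and its relative RAB1A (0.48 ± 0.10, adjusted p of 0.00019). Genes on the other strand overlap 43.8% of the exonic bases of RAB1B and 13.5% of those of FRMD4A.

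In senescent cells IMP1088 raised 2 and lowered 3 (background 20.6% and 23.9%), and DDD86481 raised 1 and lowered 3 (20.1% and 23.1%). ARL1, the GTPase that recruits the products of ARFGEF1 and ARFGEF2 to the trans-Golgi, rose from 141 ± 3.89 to 268 ± 0.776 CPM with IMP1088 (0.92 ± 0.10, adjusted p of 2.05e-07) and to 257 ± 15.2 CPM with DDD86481 (0.86 ± 0.10, adjusted p of 5.21e-07). FRMD4A fell with each inhibitor (-0.89 ± 0.13, adjusted p of 1.66e-05, and -0.96 ± 0.13, adjusted p of 7.83e-06), and so did PI4KB, a lipid kinase of the Golgi, from 155 ± 7.26 to 107 ± 2.21 and 109.8 ± 4.6 CPM (-0.53 ± 0.07, adjusted p of 7.42e-06, and -0.50 ± 0.07, adjusted p of 1.71e-05).

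In control cells IMP1088 raised 1 partner and lowered 1 (16.3% and 17.4%), and DDD86481 raised 2 and lowered 2 (17.8% and 18.7%). There ARL1 was higher with IMP1088 (0.31 ± 0.09, adjusted p of 0.0155) and with DDD86481 (0.28 ± 0.09, adjusted p of 0.0273). Both calls were lost with only the groups compared and without control DMSO replicate 1, the former also without control IMP1088 replicate 3, and the latter also under upper quartile scaling and without control DMSO replicate 2 or control DDD86481 replicate 1 or 3. PI4KB was lower with IMP1088 (-0.23 ± 0.07, adjusted p of 0.0194), a call lost with no filter, with only the groups compared, and without control DMSO replicate 2 or control IMP1088 replicate 1. RAB1B was lower with DDD86481 (-0.21 ± 0.08, adjusted p of 0.0494), a call lost with no filter, with only the groups compared and without any 1 library of those groups. GRASP, a scaffold that binds CYTH3 protein, was higher with DDD86481 (0.45 ± 0.17, adjusted p of 0.0405), a call lost under upper quartile scaling, under the replicate block, with only the groups compared, and without control DMSO replicate 1 or 2 or control DDD86481 replicate 1 or 2. The interaction was called for 1 positive and 3 negative partners with IMP1088 (12.1% and 14.2%) and for 1 and 2 with DDD86481 (14.4% and 15.9%).

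Among the ARF substrates, ARF4 rose with the inhibitors in senescent cells by 2.41 ± 0.13 (adjusted p of 8e-11) and 2.20 ± 0.13 (adjusted p of 2.46e-10) and in control cells by 0.95 ± 0.13 (adjusted p of 1.21e-05) and 0.88 ± 0.13 (adjusted p of 2.81e-05). Genes on the other strand overlap 18.5% of its exonic bases. ARF1 was not called with either inhibitor in either state, with intervals of -0.10 to 0.25 and -0.15 to 0.19 in senescent cells. ARF6 went down in control cells, from 124 ± 11.3 CPM with DMSO to 95.3 ± 5.03 with IMP1088 and 93.2 ± 1.45 with DDD86481. For ARF5 these levels were 127 ± 30.4, 97.8 ± 3.99 and 90.6 ± 4.3 CPM, and genes on the other strand overlap 22.2% of its exonic bases. ARF3 was at 200 ± 29.2, 220 ± 12.6 and 223 ± 13.3 CPM. Fold changes of ARF3, ARF5 and ARF6 are not given here.

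Patterns over the 18 libraries were compared by Pearson's r of log2 CPM, as a description across libraries that share a cell line, 6 group means and library depth. Control DMSO replicate 3, in which GBF1, IQSEC1, ARFGEF2 and ARFGEF1 were all lower, is among them, and r was not computed without it. Among the members the closest were ARFGAP1 and ARFGAP3 (r = 0.926), followed by GBF1 and ARFGEF1 (r = 0.900) and by CYTH3 and IQSEC1 (r = 0.881). The most opposed were CYTH3 and ARFGAP3 (r = -0.931). CYTH1 resembled no member closely, its highest r being 0.306 with ARFGAP3. Of all genes tested, the nearest was NBAS for GBF1 (r = 0.979), AP1G1 for ARFGEF1 (r = 0.960), PIKFYVE for ARFGEF2 (r = 0.976) and PHETA1 for CYTH1 (r = 0.897). It was ORMDL3 for CYTH2 (r = 0.933), THRA for CYTH3 (r = 0.994) and MED13L for IQSEC1 (r = 0.985). For the activating proteins it was ATG101 for ARFGAP1 (r = 0.983), EPB41L4A-AS1 for ARFGAP2 (r = 0.897) and ZFPM2-AS1 for ARFGAP3 (r = 0.983).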

How the data were processed

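Poly(A) RNA of 18 libraries, 3 in each of 6 groups, was sequenced by the authors from directional libraries. The deposited table held raw counts per gene symbol, 1 column per library, and 0 columns were left unmatched. The submitters' processing notes list STAR 2.7.8a, DRAGEN, DESeq2 1.32.0 and hg38, whereas the study's methods name TopHat and hg19, and the counting tool's strand setting is not given in the sources used here. Reads of genes that overlap on opposite strands may therefore be mixed. At most 5.55% of the exonic bases of a member overlap a gene on the other strand.

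Counts were filtered with filterByExpr, scaled by TMM and tested with edgeR 4.0.16 (R 4.3.3) by the quasi-likelihood test, in 1 fit of all 18 libraries, with Benjamini-Hochberg adjustment over 14341 genes and a threshold of 0.05. SE is the log2 fold change divided by the square root of F, and intervals span 2 SE. The limit that 3 counts set was 0.121 to 0.187 CPM, for counting error only, and the precision of a value follows from the library totals in the report. No replicate pair agreed within sampling noise (chi-square per gene of at least 5.26). The code was tested on simulated counts.

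Members and gene lists were chosen with earlier results of these data known. Beside the 10 members, the text names in each comparison the 3 genes of each of the 2 related lists with the largest absolute log2 fold change past the threshold, the paralogs CYTH4, IQSEC2 and IQSEC3, and the most similar gene. ARF1, ARF3, ARF4, ARF5, ARF6 and the markers were named in addition, after their values were seen. TAMALIN is listed as GRASP. Some genes of the second list are not reported here, and the list's counts leave them out. Gene positions, overlaps and lengths came from GENCODE v44 mapped to GRCh37 (96.4% of tested genes had a length), and promoter windows from RefSeq on GRCh38.p14.

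Replicate numbers of the labels were checked for pairing by correlating deviations from group means. For control cells with DMSO and with IMP1088, r was 0.394, 0.123 and 0.231 for numbers 1, 2 and 3, each above 0.1. None of the other 4 pairs of groups checked reached 0.1 for all 3 numbers, and the remaining pairs were not checked. Libraries of unlike numbers were not correlated for comparison, so these values cannot show that equal numbers mark the same experiment. The main fit used no replicate block. Alternatives were upper quartile and RLE scaling, DESeq2 1.42.0, no filter, only the groups compared, a replicate block, each library left out and, for levels, the longest transcript. Leaving control DMSO replicate 3 out of comparisons among senescent groups was chosen after seeing the data.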

Additional observations from a re-analysis of the deposited data

Results flagged for a closer look

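The effect of an inhibitor differed between senescent and control cells by the test of the interaction term for 5 members. For CYTH3 the difference in log2 fold change was -0.84 with IMP1088 (edgeR adjusted p = 0.000862) and -0.74 with DDD86481 (adjusted p = 0.00226). For ARFGAP3 it was 0.39 (adjusted p = 0.0258) and 0.44 (adjusted p = 0.0125), and for ARFGAP1 0.39 (adjusted p = 0.0495) and 0.48 (adjusted p = 0.0171). With DDD86481 alone it passed the threshold for CYTH2 (0.51, adjusted p = 0.0227) and IQSEC1 (-0.89, adjusted p = 0.0118). In fits with 1 library removed, the IMP1088 terms of ARFGAP1 and ARFGAP3 stayed past the threshold in 3 and 7 of 12. The DDD86481 terms of ARFGAP1 and CYTH2 stayed past it in 10 and 9 of 12. The other terms of members named here stayed past it in all 12.

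Among the related genes, the activating proteins ASAP1 (-0.81 with IMP1088, adjusted p = 0.0351, and -0.85 with DDD86481, adjusted p = 0.0247) and ARAP3 (-0.86, adjusted p = 0.00444, and -0.82, adjusted p = 0.00576) had negative terms. So had AGAP1 (-0.69, adjusted p = 0.00948, and -0.84, adjusted p = 0.00237), while those of FBXO8 were positive (0.76, adjusted p = 0.0031, and 0.67, adjusted p = 0.00696). FRMD4A had terms of -0.98 (adjusted p = 0.000782) and -1.12 (adjusted p = 0.000239). PI4KB had -0.30 with IMP1088 (adjusted p = 0.038) and -0.29 with DDD86481 (adjusted p = 0.0377), the latter past the threshold in 4 of 12 fits with 1 library removed. ARL1 had terms of 0.61 (adjusted p = 0.00249) and 0.59 (adjusted p = 0.00316). GRASP had -0.62 with DDD86481, which missed the threshold (adjusted p = 0.0582), and -0.67 with IMP1088 (adjusted p = 0.0475), which stayed past the threshold in 2 of 12 fits with 1 library removed. Every term rests on the 3 control DMSO libraries, of which replicate 3 stood apart by transcript length.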

How the results depend on the processing

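Over the alternatives, 1617 single-gene results kept direction and side of the threshold, 135 fell below it, 41 passed it and 27 changed sign, none of the last being called. In senescence, upper quartile scaling called 5 members and a fit of only the groups compared called 5, in place of 8. Fitting only the groups compared called 8 members with IMP1088 in senescent cells in place of 4, 1 with IMP1088 in control cells in place of 3 and 1 with DDD86481 in control cells in place of 4. It called 3 in place of 8 other ARF regulators with IMP1088, and 0 partners with IMP1088 and 0 with DDD86481 in place of 2 and 4, in control cells. These fits hold fewer libraries, and the share of all genes called in an alternative was not counted. Without 1 library, members called ranged from 5 to 8 in senescence, from 2 to 4 with DDD86481 in control cells, and from 1 to 7 and from 3 to 8 for the interactions with IMP1088 and DDD86481. In control cells, other ARF regulators called ranged from 4 to 10 with IMP1088 and partners from 1 to 2 with IMP1088 and from 0 to 3 with DDD86481. With DDD86481 in control cells, upper quartile scaling called 2 partners and no filter 2, in place of 4. Partners called for the interaction with IMP1088 numbered 2 under upper quartile scaling and 2 to 4 without 1 library, in place of 4. The other causes were not tested.

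The replicate block gave 8, 5, 5, 3, 4, 3 and 5 members called, in senescence, with IMP1088 and DDD86481 in senescent cells, with each in control cells and in the interactions. It added ARFGEF2 with IMP1088 in senescent cells (0.39, adjusted p = 0.049) and changed no other member's call. Of the 5 pairs of groups checked, only the numbers of control DMSO and control IMP1088 were taken as paired.

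Changes of sign lay near 0 or on few counts. Upper quartile scaling gave -0.030 for CYTH3 and -0.014 for CYTH4 with IMP1088 in control cells. Without 1 library, log2 fold changes ran for CYTH3 in control cells from -0.090 to 0.11 with IMP1088 and from -0.14 to 0.061 with DDD86481, and for CYTH1 from -0.23 to 0.063 with DDD86481 in control cells and from -0.19 to 0.050 and from -0.23 to 0.061 in the interactions with IMP1088 and DDD86481. For ARFGAP2 they ran from -0.0015 to 0.15 with IMP1088 in senescent cells and from -0.071 to 0.079 and from -0.037 to 0.11 in the interactions. For CYTH4 in control cells they ran from -0.66 to 0.26 with DDD86481 and from -0.37 to 0.63 with IMP1088, and for IQSEC2 from -0.054 to 0.13 with DDD86481 in senescent cells. For IQSEC3 they ran from -0.75 to 0.079 with DDD86481 and from -0.51 to 0.21 with IMP1088 in control cells, and from -0.17 to 0.50 with DDD86481 in senescent cells. IQSEC3, and CYTH4 in control cells, had at most 22 counts per library, which limits their precision.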
